A study of Mus musculus with 3 samples.

Results

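Ionocyte nuclei were selected in single-nucleus RNA profiles of the submandibular salivary gland of the mouse. A barcode was kept when it had at least 500 detected genes and at most 5% mitochondrial UMIs (unique molecular identifiers, the counted RNA molecules). It was called an ionocyte nucleus when at least 3 of 9 genes were detected (Kcnj3, Rcan2, Cntn5, Pde1c, Clnk, Stap1, Hepacam2, Slc4a11 and Ascl3) and at most 1 of 7 genes of other cells (Lama2, Pdgfra, Ptprz1, Fhod3, Flt1, Ptprb and Ptprc). In all, 1048 of 27633 kept nuclei met this rule, out of 32511 deposited barcodes. They were 183 of 8376 nuclei in the IR+pilocarpine library, 533 of 8622 in the IR+saline library and 332 of 10635 in the non-IR library.

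All 3 groups were wild type by their labels, and each group was 1 library. The IR+pilocarpine glands were irradiated (IR) and treated with pilocarpine, a muscarinic receptor agonist that stimulates salivation, between day 30 and day 90. The IR+saline glands were irradiated and given saline, and the non-IR glands had no treatment. The titles place collection of both irradiated groups at day 90 and the extraction protocol at day 93, and neither the number, sex and age of the mice nor the hour of collection is stated in the sources used here. Irradiation and saline cannot be told apart in the comparison of IR+saline with non-IR glands, and in every comparison the group cannot be told apart from its library. No test between groups was therefore possible, nuclei were not used as replicates, and every interval below is a 95% interval for counting error only.

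Ionocytes are rare epithelial cells of salivary ducts, airways and other epithelia that are specialised in ion transport. In salivary ducts of the mouse they are marked by the transcription factor Ascl3, and related cells in airways and kidney depend on the forkhead factor Foxi1. Related cells typically carry the vacuolar proton pump (V-ATPase), chloride channels and bicarbonate transporters, through which they set the acidity and salt content of the fluid that passes them.

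The forkhead recognition core TGTTTAC, searched on both strands, was found in the 250 bases before the transcription start of several genes of these nuclei. The RefSeq promoters (GRCm38.p6) of Atp6v1b1 (chr6:83742767-83743016, plus strand), Gprc6a (chr10:51631459-51631708, minus strand) and Fgf10 (chr13:118714449-118714698, plus strand) are shown as examples. All 3 genes stood higher in ionocyte nuclei than in other nuclei of each library. Capitals mark the motif, which begins 98, 238 and 11 bases before the start site in that order.
Atp6v1b1: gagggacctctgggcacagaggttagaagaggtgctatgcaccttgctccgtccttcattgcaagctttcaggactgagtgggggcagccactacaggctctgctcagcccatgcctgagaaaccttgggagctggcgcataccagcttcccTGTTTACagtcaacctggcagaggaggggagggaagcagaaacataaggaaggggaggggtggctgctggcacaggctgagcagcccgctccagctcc
Gprc6a: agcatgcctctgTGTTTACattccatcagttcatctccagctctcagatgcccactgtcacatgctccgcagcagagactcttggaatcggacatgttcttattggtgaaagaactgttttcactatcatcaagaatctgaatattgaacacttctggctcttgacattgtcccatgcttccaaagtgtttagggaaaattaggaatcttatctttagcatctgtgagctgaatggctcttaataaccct
Fgf10: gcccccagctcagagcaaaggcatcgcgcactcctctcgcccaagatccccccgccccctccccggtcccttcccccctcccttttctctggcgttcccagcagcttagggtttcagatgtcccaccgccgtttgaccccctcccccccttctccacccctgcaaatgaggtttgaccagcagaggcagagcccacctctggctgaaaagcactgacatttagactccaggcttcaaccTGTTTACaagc
Of all 32851 promoter windows of this length, 3.17% held the motif, as did 3.54% of the 27025 genes with a window. Among the 20 genes listed below as most particular in level to ionocyte nuclei, 14 had a window and 1 of these held it, which was that of Gprc6a. Among the 23 genes of specialised V-ATPase subunits and of chloride and bicarbonate transport, 14 had a window, and that of Atp6v1b1 held it. Among the 9 rule genes, 7 had a window, and that of Pde1c, which is not printed, held it. Fgf10 belongs to none of these sets. The match describes the letters of these windows only.

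The number of rule genes detected per nucleus, which chose the members and is given as a description, was 0 or 1 in most nuclei. In the IR+pilocarpine library 198 nuclei had 2 rule genes, 64 had 3, 38 had 4 and 80 had 7. In the IR+saline library the counts were 262 with 2 rule genes, 58 with 3, 57 with 4 and 134 with 7. In the non-IR library they were 222, 57, 81 and 72 nuclei with 2, 3, 4 and 7 rule genes. Each library had a low point at 3 or 4 rule genes and a second maximum at 6 or 7. Nuclei with 2 rule genes, just below the threshold, outnumbered those with 3 in each library. With the threshold at 2, ionocyte nuclei would be 3.77%, 8.66% and 4.70% of IR+pilocarpine, IR+saline and non-IR nuclei.

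**Figure D1:**
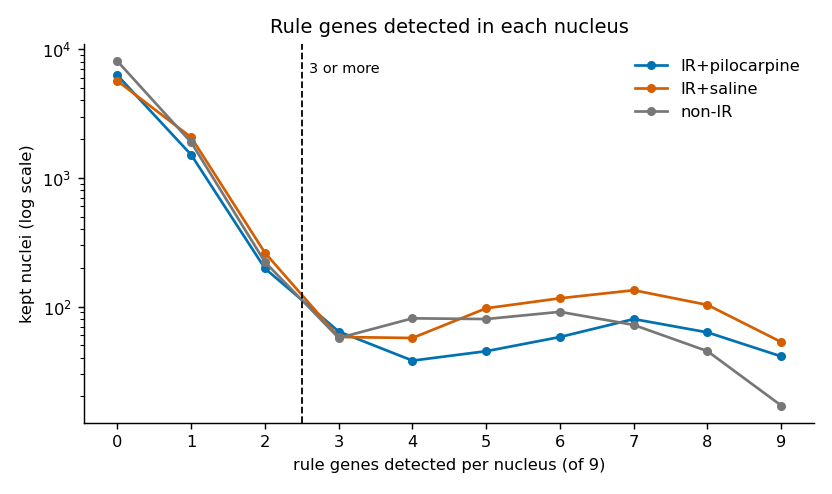
Kept nuclei (log scale) by the number of the 9 rule genes detected, for IR+pilocarpine, IR+saline and non-IR libraries; the dashed line marks the threshold of 3. Each library has most nuclei at 0 or 1, a low point at 3 or 4 and a second maximum at 6 or 7, such as 134 IR+saline nuclei with 7 rule genes.

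Of the genes used here, Kcnj3 lies at chr2:55435970-55598145 on the plus strand, Ascl3 at chr7:109727465-109731726 on the minus strand, Foxi1 at chr11:34204338-34208089 on the minus strand and Cftr at chr6:18170687-18322768 on the plus strand (GRCm38), all annotated as protein-coding genes.

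The label was checked with genes the rule did not use. Foxi1, the transcription factor of ionocytes in airways and kidney, was detected in 12.6% of IR+pilocarpine, 18.4% of IR+saline and 11.1% of non-IR ionocyte nuclei. Nuclei with both Lama2 and Pdgfra, fibroblast genes, and with fewer than 3 rule genes served as a measure of free RNA. Nuclei of this kind with 3 or more rule genes were left out, so shares in this class may understate free RNA. Foxi1 was detected in 0.398% of these nuclei in the IR+pilocarpine library, 0.674% in the IR+saline library and 0% of 380 in the non-IR library. Median depth was 2502, 2113 and 1873 UMIs in ionocyte nuclei and 1986, 2322 and 1690 UMIs in the Lama2 and Pdgfra nuclei of the same libraries. Just inside the threshold, among nuclei with exactly 3 rule genes, Foxi1 was detected in 5.88% of 34 IR+pilocarpine, 8.16% of 49 IR+saline and 10.3% of 39 non-IR nuclei. Just outside it, among nuclei with 2 rule genes, the shares were 1.5% of 133, 0.467% of 214 and 0% of 168. Cftr and Atp6v0d2, a chloride channel and a proton pump subunit described below, did not separate in this way in each library. Cftr was detected in 20.6%, 36.7% and 38.5% of nuclei with 3 rule genes and in 14.3%, 30.8% and 19.0% of those with 2. Atp6v0d2 was detected in 29.4%, 26.5% and 28.2% of nuclei with 3 rule genes and in 13.5%, 30.4% and 16.7% of those with 2, and so was no more frequent with 3 in the IR+saline library. Of a different rare cell, the tuft cell, 2, 6 and 2 of 11 markers had UMIs in IR+pilocarpine, IR+saline and non-IR ionocyte nuclei, and the 11 summed to 36.1, 41.3 and 16 CPM (the gene's UMIs scaled to library totals of equal size), against 64.9, 63.7 and 30.1 CPM in other nuclei. At least 1 marker was found in 12.0%, 10.7% and 3.61% of ionocyte nuclei, and most of these UMIs were of Dclk1 and Avil. Pou2f3 and Trpm5, its defining transcription factor and cation channel, had 0 UMIs in all ionocyte nuclei, where a count of 0 allows up to 2.52, 1.17 and 2.18 CPM in the IR+pilocarpine, IR+saline and non-IR libraries.

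Clustering of all kept nuclei without the 16 rule genes placed 78.0% of ionocyte nuclei in 1 of 22 clusters, number 11. Of its 837 nuclei 97.6% met the rule. It held 68.3% of IR+pilocarpine (125 nuclei), 80.1% of IR+saline (427) and 79.8% of non-IR ionocyte nuclei (265). Besides 8 rule genes, Clca4a and Gng4 were among its 10 leading genes. The ionocyte nuclei outside cluster 11 were deeper, with medians of 6500, 5574 and 7036 UMIs in the IR+pilocarpine, IR+saline and non-IR libraries, against 1942, 1866 and 1550 UMIs for those inside. Foxi1 stood at 6.0, 13.4 and 8.94 CPM outside the cluster and at 61.4, 75.4 and 55.2 CPM inside it. The 58 IR+pilocarpine ionocyte nuclei outside the cluster form a larger part of that library's ionocyte RNA than in the other libraries, and cluster 11 held 358193 of 1191043 IR+pilocarpine, 1366462 of 2563700 IR+saline and 706814 of 1377885 non-IR ionocyte UMIs. The values of cluster 11 are therefore given beside those of all ionocyte nuclei for the main results.

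RNA of other cells was present in these nuclei. The 10% of ionocyte nuclei with most UMIs held 54.1% of the ionocyte UMIs in the IR+pilocarpine, 47.9% in the IR+saline and 43.7% in the non-IR library. Doublet calling by scrublet marked 0 barcodes in each library and so did not work, and doublets stay in the data. Among nuclei with at least 3 rule genes, 53% of 389 IR+pilocarpine, 13.8% of 618 IR+saline and 25.1% of 443 non-IR nuclei were left out because 2 or more of the 7 other genes were detected, at median depths of 29642, 18629 and 21673 UMIs. Mucl2, a secreted acinar product, had UMIs in every ionocyte nucleus, and the 12 acinar genes summed to 41271, 29716 and 33123 CPM, against 50343, 44877 and 44464 CPM in all other kept nuclei. Their part in the results below was not tested. The libraries shared 28 to 33 barcodes in pairs, none of them an ionocyte nucleus in both. Xist and Y-linked RNA were both found in every library (Xist at 1179, 1128 and 1085 CPM in ionocyte nuclei), so each library held RNA of both sexes.

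Ionocyte nuclei made up a smaller share of IR+pilocarpine nuclei, and a larger share of IR+saline nuclei, than of non-IR nuclei. The shares of kept nuclei were 2.18% in the IR+pilocarpine library (exact Clopper-Pearson interval 1.88 to 2.52%), 6.18% in the IR+saline library (5.68 to 6.71%) and 3.12% in the non-IR library (2.80 to 3.47%). The IR+saline share was 3.06 percentage points above the non-IR share (Newcombe interval 2.46 to 3.67). The IR+pilocarpine share differed from the IR+saline share by -4.00 points (-4.60 to -3.40) and from the non-IR share by -0.937 points (-1.39 to -0.477). When each nucleus was thinned to 800 UMIs, leaving out 307 IR+pilocarpine, 448 IR+saline and 838 non-IR nuclei that were shallower, the shares were 1.5%, 4.60% and 2.12%. With no limit on the 7 genes of other cells, an alternative chosen after seeing the data, they were 4.64%, 7.17% and 4.17%, and the IR+pilocarpine share was then above the non-IR share by 0.479 points (-0.106 to 1.07). At full depth, the order of these 2 libraries therefore depended on the limit on the 7 genes. Among nuclei thinned to 800 UMIs, with no limit, 125 of 8069 IR+pilocarpine and 210 of 9797 non-IR nuclei had 3 or more rule genes. The IR+pilocarpine share was then the smaller one, and the reason for the change of order was not tested. The IR+saline share was the highest under each setting plotted. The nuclei were sorted before sequencing, and the shares are of sorted nuclei.

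**Figure D2:**
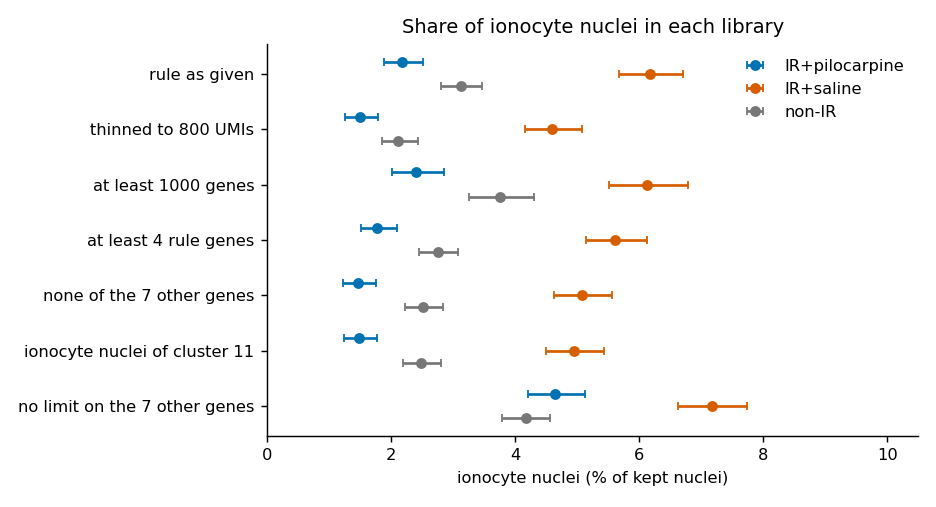
Ionocyte nuclei as a share of kept nuclei in the IR+pilocarpine, IR+saline and non-IR libraries under the rule as given and 6 other settings; bars are exact 95% intervals for counting error. The IR+saline point lies highest in each row (6.18% under the rule as given), and the IR+pilocarpine point passes the non-IR point only with no limit on the 7 other genes (4.64% and 4.17%).

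Beyond the rule genes, ionocyte nuclei carried more RNA of several transcription factors, of specialised proton pump subunits and of some chloride channel genes than the other nuclei of the same library. Of 7503 genes with at least 20 UMIs in the ionocyte nuclei of each library, 125 (1.67%) were at least 2-fold above all other kept nuclei in each of the 3 libraries, and 37 (0.493%) were at most 0.5-fold. The count of higher genes was 220 without nuclei above the 95th percentile of UMIs, 257 with equal weight for each nucleus and 66 when only nuclei outside acinar-like clusters were the comparison. These nuclei were chosen by expression, so the contrast is a description and was not tested. The values are CPM of UMIs summed over the nuclei.

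Among the transcription factors of ionocytes, 4 of 9 measured genes passed this fold: Foxi1, Foxi2, Dmrt2 and Tfcp2l1. Foxi1 stood at 22.7, 46.4 and 32.7 CPM in IR+pilocarpine, IR+saline and non-IR ionocyte nuclei, against 3.11, 1.5 and 1.82 CPM in the other nuclei. Its ratios were 7.29 (4.58 to 11.2), 30.9 (21.4 to 45.4) and 18.0 (11.6 to 27.8), with exact conditional binomial intervals as for all ratios below. Foxi2, a second forkhead factor of the same family, stood at 23.5, 30.8 and 37.0 CPM, against 1.46, 1.54 and 1.12 CPM. Foxi3, the third, had 0 UMIs throughout. Dmrt2, a factor of acid-secreting cells in the kidney, stood at 43.7, 64.4 and 50.8 CPM, against 2.64, 2.10 and 1.78 CPM. Tfcp2l1, which acts with Foxi1 in kidney collecting ducts of the mouse, was abundant in ionocyte nuclei at 1199, 2262 and 1711 CPM, and the other nuclei also had 460, 1110 and 569 CPM. Hmx2 and Hmx3 had 0 UMIs in the ionocyte nuclei of all 3 libraries.

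The proton pump showed a split between its subunit forms. All 3 measured specialised subunits were above the 2-fold mark in each library, whereas none of 15 measured general subunits was. Atp6v1b1, the B1 subunit of acid-secreting cells, stood at 23.5, 53.4 and 53 CPM in IR+pilocarpine, IR+saline and non-IR ionocyte nuclei, against 5.25, 4.62 and 3.14 CPM in other nuclei. Atp6v0d2, a d subunit form, stood at 160, 287 and 258 CPM, against 39.2, 82.8 and 57.8 CPM. Atp6v1c2, a C subunit form, stood at 36.1, 94.0 and 63.9 CPM, against 15.6, 37.6 and 26.5 CPM. The kidney form of the a subunit, Atp6v0a4, had 1, 6 and 0 UMIs in the ionocyte nuclei, and Atp6v1g3 had 6, 18 and 8 UMIs. Both were below the minimum and were not compared with other nuclei. Among measured subunits, the specialised pump RNA therefore consisted of B1, d2 and C2 forms. Atp6v1g3 RNA was also detected in the ionocyte nuclei of each library, at too few UMIs for the 2-fold mark.

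For chloride and bicarbonate transport, 3 of 9 measured genes passed the fold, Cftr and Bsnd among them. Cftr, the cyclic AMP-gated chloride and bicarbonate channel, stood at 171, 296 and 390 CPM in IR+pilocarpine, IR+saline and non-IR ionocyte nuclei, against 43.1, 97.7 and 55.6 CPM in other nuclei. Bsnd, barttin, an accessory subunit of chloride channels, stood at 42.8, 77.6 and 71.8 CPM, against 7.80, 14.2 and 8.43 CPM. The anion exchangers Slc4a1, Slc26a4, Slc26a7 and Slc4a9, of kidney intercalated cells, had at most 4 UMIs in the ionocyte nuclei of any library. Slc12a2, the cotransporter that loads secretory cells with chloride, was at 2894, 2791 and 2942 CPM, close to the 2314, 1931 and 2243 CPM of other nuclei.

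Of 12 measured potassium and sodium genes, Fxyd2 and Scnn1a passed. Fxyd2, a regulator of the sodium pump, stood at 232, 328 and 289 CPM in IR+pilocarpine, IR+saline and non-IR ionocyte nuclei, against 82.7, 138 and 96.3 CPM in other nuclei. Slc9a4, a sodium-proton exchanger, was among the 20 genes with the largest lowest ratio, at 58.8, 92.8 and 62.4 CPM, against 3.85, 3.27 and 2.85 CPM.

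Kcnj3 is the GIRK1 subunit of potassium channels that open on G protein signals and is known to need a partner subunit. Of its partners, Kcnj5 had 0 UMIs in the ionocyte nuclei of all 3 libraries, Kcnj6 had 1 UMI, in the non-IR library, and Kcnj9 had 1 UMI, in the IR+saline library. Gng4, a G protein gamma subunit, was 1 of the 20 leading genes, at 60.5, 119 and 67.5 CPM in IR+pilocarpine, IR+saline and non-IR ionocyte nuclei, against 4.35, 3.16 and 2.73 CPM in other nuclei. The muscarinic receptors that couple to such channels elsewhere, Chrm2 and Chrm4, had at most 1 UMI per library. Chrm3, the receptor of acinar cells, had a UMI in 72.1%, 58.3% and 78.3% of ionocyte nuclei. It also had one in 51.8%, 41.8% and 67.4% of the Lama2 and Pdgfra nuclei, and its level in ionocyte nuclei, 2798, 2077 and 2614 CPM, was below the 3055, 2829 and 3399 CPM of other nuclei.

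Of 10 measured genes of a list of other receptors, Kit and Nr3c2 passed the 2-fold mark in each library, and of 4 measured genes of the fibroblast growth factor pathway none did. Kit, a receptor tyrosine kinase, stood at 144, 195 and 203 CPM in IR+pilocarpine, IR+saline and non-IR ionocyte nuclei, against 22.1, 19.4 and 11.5 CPM in other nuclei. Nr3c2, the mineralocorticoid receptor, stood at 527, 905 and 626 CPM, against 218, 426 and 224 CPM. Adra1a, an alpha-adrenergic receptor, stood at 375, 773 and 540 CPM, against 146, 391 and 224 CPM, with a ratio of 1.98 in the IR+saline library. Fgf10, a growth factor that fibroblasts make, was detected in 53%, 59.5% and 47.0% of ionocyte nuclei and stood at 179, 317 and 224 CPM, against 117, 103 and 78.1 CPM in other nuclei. It was detected in 75.3%, 79.3% and 65.3% of the Lama2 and Pdgfra nuclei, which are of a kind that makes it, so free RNA was not measured for this gene. Fgf10 and Cftr were found together in 24%, 31.3% and 30.7% of ionocyte nuclei, and the product of the 2 detection shares is 24%, 29.5% and 28.3%. Gprc6a, an amino acid-sensing receptor, stood at 23.5, 39.0 and 35.6 CPM, against 2.46, 1.13 and 1.65 CPM.

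The 20 genes with the largest lowest ratio over the 3 libraries were Neurl1a, Clca4a, Esp34, Dmrt2, Foxi2, Slc9a4, Gng4, Spire2, Pacsin1, Arpp21, Hspb7, Syn2, Dync1i1, Aldh1a3, Cfap69, Nrip3, Dscaml1, Gprc6a, Steap2 and Foxi1. Neurl1a, a ubiquitin ligase, led them at 32.7, 47.6 and 52.3 CPM in IR+pilocarpine, IR+saline and non-IR ionocyte nuclei, against 1.65, 1.88 and 1.86 CPM in other nuclei. Clca4a, of the calcium-activated chloride channel regulator family, was at 53.7, 84.3 and 66.0 CPM, against 2.70, 1.80 and 1.78 CPM. Syn2 and Pacsin1 are known from nerve terminals. Syn2 was detected in 40.4%, 43.5% and 31.6% of ionocyte nuclei, and in 0.797%, 0.899% and 0.526% of the Lama2 and Pdgfra nuclei. Calca and Chga, markers of neuroendocrine cells, each had 0 UMIs in the ionocyte nuclei of all 3 libraries, which allows up to 2.52, 1.17 and 2.18 CPM in IR+pilocarpine, IR+saline and non-IR.

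**Figure D3:**
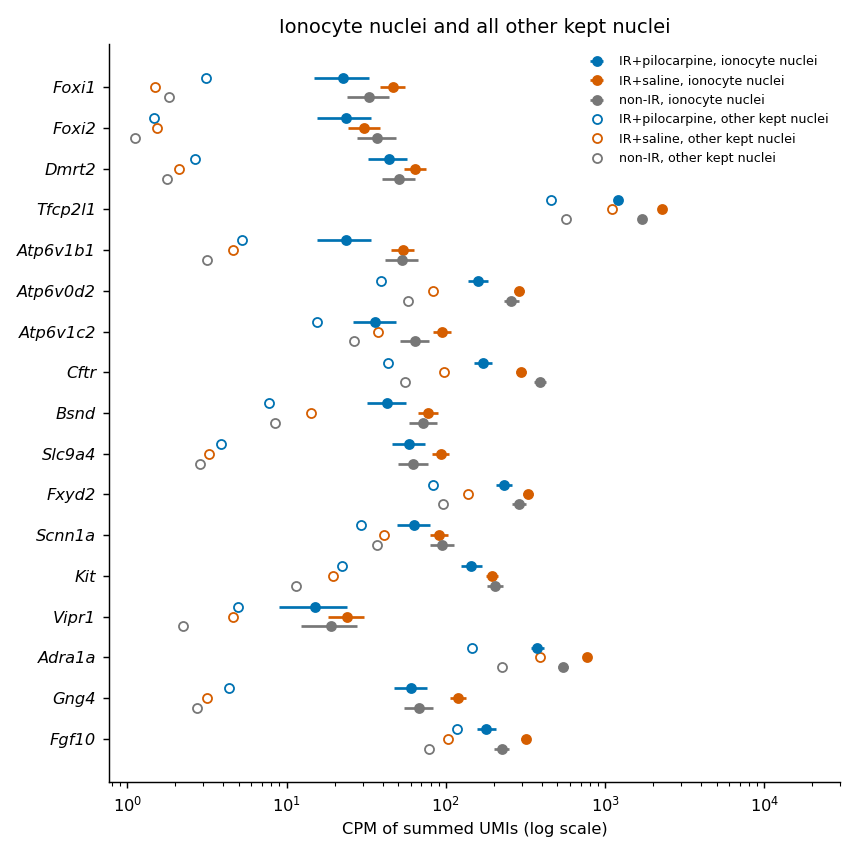
CPM of summed UMIs (log scale) for 17 genes in ionocyte nuclei (filled, with exact Poisson 95% intervals) and in all other kept nuclei (open) of the IR+pilocarpine, IR+saline and non-IR libraries. Filled points lie right of the open point of the same library for every gene shown, for example Foxi1 at 46.4 and 1.5 CPM in the IR+saline library.

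The comparison of IR+saline with non-IR glands asks how ionocytes differ 90 days after irradiation. Interferon-induced genes were higher in IR+saline ionocyte nuclei, as were products of granular ducts, while the median of ion transport genes lay near that of all genes. Among 8740 genes that had 50 or more UMIs over the 2 libraries, 701 (8.02%) were at least 1.5-fold higher and 513 (5.87%) at least 1.5-fold lower in IR+saline ionocyte nuclei. In all other kept nuclei, 6.85% and 1.92% of these genes passed the same marks. Of the 701 genes, 91.9% were also higher, and 46.9% also past 1.5-fold, in the other nuclei, and of the 513 genes 86.7% and 22.8% were lower and past the mark.

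Of 15 interferon-induced genes with enough UMIs, 14 were past 1.5-fold higher and none lower in IR+saline ionocyte nuclei. The median log2 ratio over 21 list genes with at least 10 UMIs was 1.19, against 0.01 over all genes and 1.11 for the list in the other kept nuclei, so the excess was not limited to ionocytes. Oasl2, an antiviral protein of the oligoadenylate synthetase family, stood at 107 CPM in IR+saline and 32.7 CPM in non-IR nuclei, a ratio of 3.27 (2.38 to 4.59). Ifi27l2a stood at 81.9 CPM and 17.4 CPM in the same order, a ratio of 4.70 (3.08 to 7.51), and had UMIs in 140 of 533 IR+saline and 17 of 332 non-IR ionocyte nuclei. Ifi44 stood at 42.9 and 7.98 CPM, a ratio of 5.37 (2.89 to 11.1), and Trim30a at 48.0 and 8.71 CPM, a ratio of 5.51 (3.04 to 11). In cluster 11 alone, where 8.75% of 6562 measured genes were past the mark higher and 7.04% lower, 12 of 14 interferon genes were higher and none lower, and Ifi44 had 72 UMIs in IR+saline and 3 in non-IR nuclei, a ratio of 12.4 (4.08 to 61.6).

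Genes of DNA damage moved less. Of 14 measured p53 and DNA damage genes, 6 were past 1.5-fold higher and none lower, with a list median of 0.41 in ionocyte nuclei and 0.68 in the other nuclei. Pvt1, a long noncoding RNA induced by p53, stood at 58.9 CPM in IR+saline and 20.3 CPM in non-IR ionocyte nuclei (ratio 2.90, 1.93 to 4.51). Bax, a mediator of cell death, stood at 24.6 and 13.1 CPM in that order (ratio 1.88, 1.10 to 3.38). Cdkn1a, the cell cycle inhibitor that p53 induces, had only 8 UMIs in IR+saline and 1 in non-IR ionocyte nuclei, below the minimum. In cluster 11, 2 of 7 measured genes of this list were past the mark.

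Kntc1, a kinetochore protein, ranked first among genes higher in IR+saline ionocyte nuclei. It stood at 48.4 CPM in IR+saline and 7.26 CPM in non-IR ionocyte nuclei, from 124 UMIs in 86 nuclei and 10 UMIs in 9 nuclei, a ratio of 6.66 (3.50 to 14.2), and the ratio in the other nuclei was 3.22. Adcy2, an adenylate cyclase, stood at 228 and 51.5 CPM (ratio 4.43, 3.46 to 5.75), and at 237 and 32.5 CPM in cluster 11 (7.29, 4.77 to 11.7). Sgk1, a kinase induced by steroid hormones that raises sodium transport, stood at 56.2 and 17.4 CPM (3.22, 2.08 to 5.20). In cluster 11 Sgk1 had 74 UMIs in IR+saline and 5 in non-IR nuclei (7.66, 3.14 to 24.3). The others of the 10 highest were Trim30d, Klk1b24, Klk1b16, Klk1b22 and Dock2. Dock2, a leukocyte gene, had 62 of its 175 IR+saline UMIs in 1 nucleus, and its ratio of 3.62 (2.39 to 5.69) over all nuclei was 1.81 (0.345 to 17.9) in cluster 11, from 7 and 2 UMIs. The macrophage list summed to 131 CPM in IR+saline and 38.5 CPM in non-IR ionocyte nuclei, and its part in Dock2 was not tested.

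Among genes lower in IR+saline ionocyte nuclei, Igsf21, a synaptic adhesion protein, stood at 14.4 CPM in IR+saline and 58.1 CPM in non-IR ionocyte nuclei, 4.02-fold lower (2.69 to 6.11). Trpv6, an epithelial calcium channel, stood at 12.9 and 32.7 CPM in that order, 2.54-fold lower (1.58 to 4.10). Rims2, a protein of exocytosis zones, stood at 10.1 and 26.9 CPM, 2.65-fold lower (1.56 to 4.55). Taco1, a mitochondrial translation activator, stood at 144 and 409 CPM, 2.84-fold lower (2.49 to 3.25). In all other nuclei the ratios were 0.343 for Igsf21, 0.415 for Taco1, 0.634 for Trpv6 and 0.721 for Rims2. Ranked genes had to be at least as high in ionocyte nuclei as in other nuclei of the library where they are higher, and Trpv6 met this narrowly in the non-IR library, at 32.7 CPM against 32.4 CPM, so the pairs of ratios are not a comparison. The others of the 10 were Arntl, Zcchc14, Cyp2s1, Crnkl1, Arhgef37 and Cdk10.

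Circadian clock genes differed in both directions, and the hour of collection is not known. Arntl, an activator of the clock, stood at 7.41 CPM in IR+saline and 35.6 CPM in non-IR ionocyte nuclei, 4.80-fold lower (2.77 to 8.63). Npas2, its partner, stood at 3.51 and 31.2 CPM, 8.89-fold lower (4.27 to 20.7), from 9 and 43 UMIs. Per2, a repressor of the clock, stood at 76.5 and 21.0 CPM, a ratio of 3.63 (2.45 to 5.57). The other nuclei had ratios of 0.136 for Arntl and 5.14 for Per2. In all, 4 of 17 measured clock genes were past 1.5-fold higher and 4 lower. In the IR+pilocarpine library Arntl was at 8.40 CPM and Per2 at 76.4 CPM, near the IR+saline values.

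Ion transport genes of ionocyte nuclei had a median log2 ratio of 0.02 between IR+saline and non-IR, with 1 of 42 measured genes past 1.5-fold higher and 4 lower. Cftr stood at 296 CPM in IR+saline and 390 CPM in non-IR ionocyte nuclei, 1.32-fold lower (1.18 to 1.47), and at 415 and 604 CPM in cluster 11, 1.46-fold lower (1.28 to 1.65). In all other kept nuclei Cftr was 1.76-fold higher in IR+saline. Atp6v1b1 stood at 53.4 and 53 CPM, a ratio of 1.01 (0.754 to 1.36). Of the rule genes, which chose the nuclei and are given as a description, Ascl3 stood out at 202 CPM in IR+saline and 93.6 CPM in non-IR ionocyte nuclei, a ratio of 2.16 (1.78 to 2.64). It was at 328 and 160 CPM in cluster 11, a ratio of 2.05 (1.66 to 2.54), and was detected in 50.3% of IR+saline and 23.8% of non-IR ionocyte nuclei. Foxi1 stood at 46.4 and 32.7 CPM, a ratio of 1.42 (1.00 to 2.05).

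Granular duct products were higher in IR+saline ionocyte nuclei for 9 of 10 measured genes, and in the other nuclei as well. Their medians were 0.96 and 1.21. Egf, a secreted growth factor of granular ducts, stood at 2636 CPM in IR+saline and 1580 CPM in non-IR ionocyte nuclei (ratio 1.67, 1.59 to 1.75), and its ratio was 2.02 in the other nuclei. Up to 404 Egf UMIs came from a single IR+saline nucleus. The Klk1b genes are near-identical copies whose reads cannot be assigned with certainty.

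**Figure D4:**
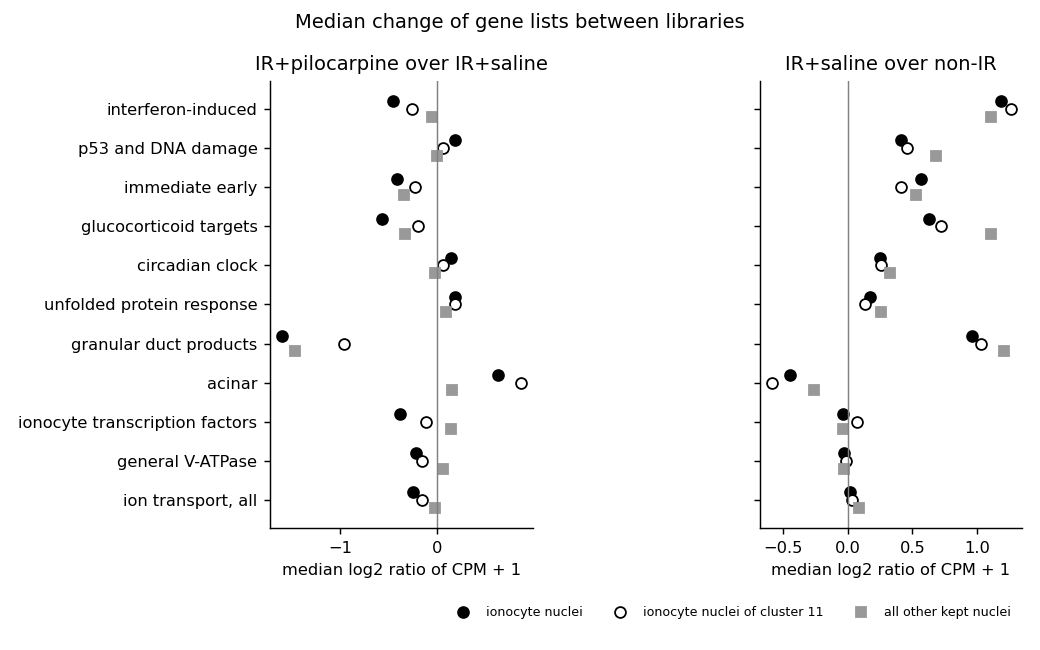
Median log2 ratio of CPM + 1 over the genes of 11 lists, for IR+pilocarpine over IR+saline (left) and IR+saline over non-IR (right), in ionocyte nuclei, in ionocyte nuclei of cluster 11 and in all other kept nuclei. On the right the interferon-induced list lies at 1.19 in ionocyte nuclei and 1.11 in other nuclei, and on the left the granular duct list lies at -1.60 and -1.47.

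The comparison of IR+pilocarpine with IR+saline glands asks what pilocarpine changed after irradiation. Granular duct products, 4 of 9 measured immediate early genes and 7 of 15 measured interferon-induced genes were past 1.5-fold lower in IR+pilocarpine ionocyte nuclei, and 4 of 7 measured acinar genes were past it higher. Among 8650 genes measured, 598 (6.91%) were at least 1.5-fold higher and 819 (9.47%) at least 1.5-fold lower. In the other nuclei 0.902% and 3.78% of these genes passed. Of the genes past the marks in ionocyte nuclei, 60.2% of the higher and 55.6% of the lower ones were also past it in cluster 11, where 7.41% and 10.3% of 5962 measured genes passed.

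Egr1, a transcription factor induced within minutes by growth factor and calcium signals, had 1 UMI (0.840 CPM) in the 183 IR+pilocarpine ionocyte nuclei. It had 74 UMIs (28.9 CPM) in 50 of the 533 IR+saline nuclei and 45 UMIs (32.7 CPM) in 34 of the 332 non-IR nuclei. The IR+pilocarpine to IR+saline ratio was 0.0291 (0.000727 to 0.167), and in all other kept nuclei it was 0.569. In cluster 11 Egr1 had 0 IR+pilocarpine UMIs, where a count of 0 allows up to 8.38 CPM, against 40.2 CPM in IR+saline and 48.1 CPM in non-IR nuclei. Fos, a second such factor, had 0 UMIs in IR+pilocarpine, 22 in IR+saline and 10 in non-IR ionocyte nuclei, at limits of 2.52 CPM in the IR+pilocarpine library. Of 9 measured immediate early genes, 4 were past 1.5-fold lower and none higher in IR+pilocarpine, with medians of -0.41 in ionocyte nuclei and -0.34 in the other nuclei. In cluster 11, 1 of 4 measured was past the mark lower, with a median of -0.23. Nr4a1 and Nr4a2, which are induced by similar signals, were at 57.1 and 59.6 CPM in IR+pilocarpine and 64.0 and 67.9 CPM in IR+saline ionocyte nuclei. Egr1 and Fos were thus nearly absent from IR+pilocarpine ionocyte nuclei, and the Nr4a genes were not.

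Sgk1 stood at 11.8 CPM in IR+pilocarpine and 56.2 CPM in IR+saline ionocyte nuclei, 4.78-fold lower (2.76 to 8.96), against 17.4 CPM in non-IR nuclei. Fkbp5, a target of the glucocorticoid receptor, stood at 87.3 CPM in IR+pilocarpine, 222 CPM in IR+saline and 128 CPM in non-IR ionocyte nuclei, 2.54-fold lower in IR+pilocarpine than in IR+saline (2.06 to 3.16). Both were also lower in the other nuclei, with ratios of 0.440 for Sgk1 and 0.437 for Fkbp5. For both genes the IR+saline library held the highest level of the 3.

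Over all ionocyte nuclei, the interferon list in IR+pilocarpine lay between IR+saline and non-IR by its medians, though not for every gene. Of 15 measured, 7 were past 1.5-fold lower than in IR+saline and none higher, with a median of -0.45 in ionocyte nuclei, -0.26 in cluster 11 and -0.05 in the other nuclei. In cluster 11 only 2 of 14 passed. Against non-IR nuclei, 8 of 12 were past 1.5-fold higher in IR+pilocarpine and none lower, with a median of 0.73. In cluster 11, 5 of 8 were past it higher than in non-IR and none lower. The median there was 1.03 over 14 genes, beside 1.26 over 21 genes for IR+saline over non-IR, so the middle position was less clear in cluster 11. Ifi44 showed the largest difference, at 10.9 CPM in IR+pilocarpine, 42.9 CPM in IR+saline and 7.98 CPM in non-IR ionocyte nuclei. Ifi27l2a was at 59.6, 81.9 and 17.4 CPM in that order, and Stat2, a transcription factor of the interferon response, at 265, 249 and 165 CPM.

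H2-Q7, a class I antigen presentation gene among the 10 highest in this comparison, stood at 85.6 CPM in IR+pilocarpine, 32.4 CPM in IR+saline and 15.2 CPM in non-IR ionocyte nuclei. The IR+pilocarpine level was 2.65-fold that of IR+saline (1.96 to 3.58) and 5.62-fold that of non-IR (3.49 to 9.47). H2-Q6 stood at 65.5, 30.0 and 16 CPM and H2-Q4 at 44.5, 22.2 and 11.6 CPM in the same order, and both are named by the ranking of IR+pilocarpine over non-IR. H2-Q genes are similar copies, so reads may be shared among them. All other nuclei showed the same order for H2-Q7, with ratios of 2.60 to IR+saline and 8.32 to non-IR.

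The highest ranked gene in this comparison, Smgc, a mucin-like product of immature acinar cells, rested on 1 nucleus. It had 136 UMIs in IR+pilocarpine ionocyte nuclei, of which 129 lay in a single nucleus, against 16 UMIs in IR+saline and 350 in non-IR nuclei. Also among the 10 highest were H2-Q7, Tspan13, Sv2c, Izumo4, Apol7a, Slc17a9, Fam114a1 and Tsta3. Slc17a9, a vesicular nucleotide transporter, stood at 126 CPM in IR+pilocarpine and 59.3 CPM in IR+saline ionocyte nuclei (2.12, 1.68 to 2.68), and Tspan13, a tetraspanin, at 131 and 57.7 CPM (2.27, 1.80 to 2.86). Acinar genes moved alongside: 4 of 7 measured were past 1.5-fold higher and 1 lower, and Aqp5, the acinar water channel, stood at 190 and 93.2 CPM (2.04, 1.69 to 2.45). Mucl2 stood at 37807 and 27401 CPM. The part of acinar RNA in the ranked genes was not tested.

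Granular duct products were lower in IR+pilocarpine ionocyte nuclei for all 10 measured genes, with a median log2 ratio of -1.60, beside -1.47 in the other nuclei and -0.96 in cluster 11. Egf stood at 734 CPM in IR+pilocarpine and 2636 CPM in IR+saline ionocyte nuclei, 3.59-fold lower (3.35 to 3.86). Also among the 10 lowest genes were Klk1b5, Luzp4, Aox4, Crisp3, Atp13a5 and Klk1b11, beside Egr1 and Sgk1. Aox4, an aldehyde oxidase, had 3 UMIs in IR+pilocarpine and 57 in IR+saline ionocyte nuclei, 8.83-fold lower (2.87 to 44.1).

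Ion transport genes were lower more often than higher in IR+pilocarpine. Of 44 measured, 4 were past 1.5-fold higher and 13 lower, with a median log2 ratio of -0.25 in all ionocyte nuclei and -0.02 over the same genes in other nuclei. In cluster 11 the counts were 4 and 8 of 36, with a median of -0.15. Several differences were smaller in cluster 11. Foxi1 was 2.05-fold lower (1.34 to 3.24) over all and 1.23-fold (0.769 to 2.04) in cluster 11. Atp6v0d2 stood at 160 and 287 CPM, 1.79-fold lower (1.52 to 2.11), and at 338 and 406 CPM in cluster 11, 1.20-fold lower (0.986 to 1.48). Atp6v1c2 was 2.60-fold lower (1.88 to 3.69) over all and 1.63-fold (1.08 to 2.55) in cluster 11. Kcnj3, a rule gene that chose the nuclei and is given as a description, was 1.91-fold lower (1.70 to 2.16) over all ionocyte nuclei, at 285 CPM in IR+pilocarpine and 545 CPM in IR+saline, and 1.20-fold lower (1.05 to 1.38) in cluster 11, at 737 and 887 CPM.

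The differences of Kcnj16 and Kcnq1 were at least as large in cluster 11, and those of Ascl3 and Tfcp2l1 were smaller there. Kcnj16, a potassium channel subunit of transporting epithelia, stood at 23.5 CPM in IR+pilocarpine and 62.4 CPM in IR+saline ionocyte nuclei, 2.65-fold lower (1.77 to 4.12). In cluster 11 it had 4 UMIs in IR+pilocarpine and 67 in IR+saline nuclei, 4.39-fold lower (1.64 to 16.6). Kcnq1, a voltage-gated potassium channel, stood at 85.6 and 149 CPM, 1.74-fold lower (1.39 to 2.18), and at 64.2 and 135 CPM in cluster 11, 2.11-fold lower (1.36 to 3.41). With nuclei thinned to 800 UMIs, the log2 ratio of Kcnq1 was 0.01. Both genes were also lower in the other nuclei, with ratios of 0.328 and 0.445. Ascl3, a rule gene given as a description, stood at 87.3 CPM in IR+pilocarpine and 202 CPM in IR+saline ionocyte nuclei, 2.31-fold lower (1.87 to 2.88), and at 181 and 328 CPM in cluster 11, 1.81-fold lower (1.39 to 2.38). Tfcp2l1 was 1.89-fold lower (1.78 to 2.0) over all and 1.48-fold (1.36 to 1.61) in cluster 11.

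**Figure D5:**
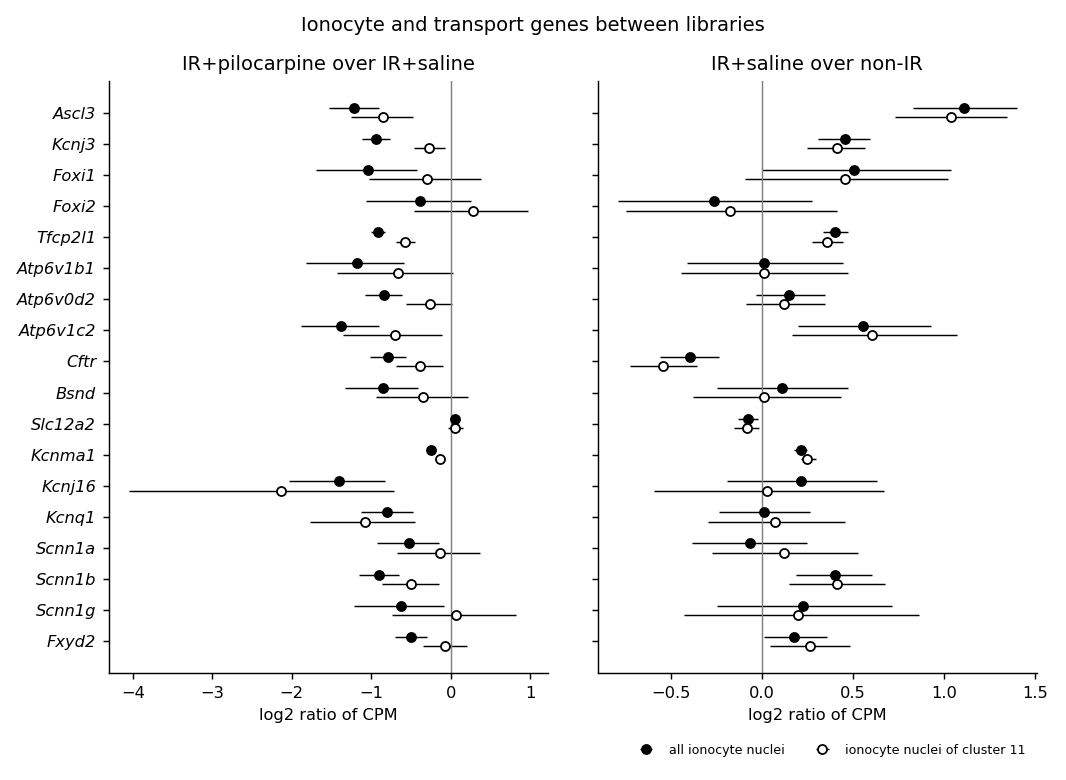
Log2 ratio of CPM for 18 ionocyte and transport genes, for IR+pilocarpine over IR+saline (left) and IR+saline over non-IR (right), over all ionocyte nuclei (filled) and those of cluster 11 (open); bars are exact 95% intervals for counting error. Kcnj3 and Ascl3 are rule genes and are shown as a description: on the left Kcnj3 lies at -0.94 over all nuclei and -0.27 in cluster 11, and on the right Ascl3 lies at 1.11 and 1.04.

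Against non-IR glands, IR+pilocarpine ionocyte nuclei had 488 of 7336 genes (6.65%) at least 1.5-fold higher and 446 (6.08%) at least 1.5-fold lower. This comparison shares a library with each of the others, so the values are set side by side only. In cluster 11, 5.38% of 4292 measured genes were past the mark higher and 7.57% lower. Cftr had its lowest level in this library, at 171 CPM in IR+pilocarpine, 296 CPM in IR+saline and 390 CPM in non-IR ionocyte nuclei. That is 2.28-fold lower in IR+pilocarpine than in non-IR (1.93 to 2.69), and 1.90-fold (1.54 to 2.35) in cluster 11, with levels of 318, 415 and 604 CPM there. In all other kept nuclei the IR+pilocarpine to non-IR ratio of Cftr was 0.774. Igsf21 stood at 9.24, 14.4 and 58.1 CPM, 6.29-fold lower in IR+pilocarpine than in non-IR (3.33 to 13.1). Its ratio was 0.159 in ionocyte nuclei and 0.160 in all other kept nuclei. Cpxm2, of the metallocarboxypeptidase family, stood at 7.56, 26.1 and 34.8 CPM, 4.61-fold lower than in non-IR (2.24 to 10.7), and 2.53-fold (1.17 to 6.27) in cluster 11. Its ratio in the other nuclei was 1.22. The ranking required these genes to be at least as high in ionocyte nuclei as in other nuclei of the non-IR library, so the pairs of ratios are not a comparison.

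Higher in IR+pilocarpine than in non-IR were H2-Q7, H2-Q6, H2-Q4, Ccdc28b, Per2, Ifi27l2a, Runx1, Dock2, Dhrs4 and Arhgap15. The direction did not hold under every setting for Dock2, whose log2 ratio of 1.64 was -0.40 with at least 4 rule genes and -0.46 without Cntn5, Rcan2 and Pde1c in the rule, nor for Arhgap15, at 1.38 and, with nuclei thinned to 800 UMIs, -0.13. Runx1, a transcription factor, stood at 85.6 CPM in IR+pilocarpine, 89.7 CPM in IR+saline and 29.0 CPM in non-IR ionocyte nuclei, 2.95-fold higher in IR+pilocarpine than in non-IR (2.03 to 4.37). Ccdc28b stood at 48.7, 33.5 and 11.6 CPM in that order. Besides Igsf21, Cpxm2 and Cftr, the genes most below non-IR in IR+pilocarpine included Snhg11, Arntl, Egf, Plxna4, Slc49a4 and Mapt. Plxna4, a semaphorin receptor, stood at 851, 1763 and 1708 CPM, and was 2.01-fold lower than in non-IR over all ionocyte nuclei (1.87 to 2.16) and 1.33-fold (1.22 to 1.45) in cluster 11. Slc49a4, a membrane transporter, stood at 16, 24.2 and 49.4 CPM, 3.09-fold lower than in non-IR (1.84 to 5.45). Its ratio in the other nuclei was 0.952, and by the same ranking condition this pair of ratios is not a comparison.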

How the data were processed

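The 3 libraries hold RNA of sorted nuclei from frozen submandibular glands, captured in droplets and read at the 3' ends, per the labels' protocols. The deposited values are counts: UMIs per gene and barcode, made by the authors with Cell Ranger 7.0.1 on the mouse build GRCm38, per the submitters' processing notes, and not normalized. Whether intronic reads were counted, and the annotation used, are not given in the sources used here. Gene positions were looked up by gene ID for 482 genes.

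UMIs were summed over ionocyte nuclei and expressed as CPM. Genes needed 50 or more UMIs over the pair of libraries, and a gene was past the fold at a CPM ratio of 1.5. List medians took log2 ratios of CPM + 1 for genes with at least 10 UMIs. CPM has exact Poisson, shares Clopper-Pearson and ratios conditional binomial intervals at 95%. Intervals and the limit that a count of 0 allows (3 counts) cover counting error only. Nuclei were clustered with scanpy 1.11.5 and leidenalg 0.10.2 on 3000 variable genes and 30 components, with 15 neighbours and resolution 1. The calculation of ratios and intervals was checked on simulated counts. The members and gene lists were chosen with earlier results of these data known.

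The named genes were the rule genes, members of the lists, the 20 genes of highest lowest ratio to other nuclei, and in each comparison the 10 most above and the 10 most below, ranked on whichever interval bound lies closer to a ratio of 1, and at least as high in ionocyte nuclei as in other nuclei of the library where they are higher. The rankings leave out rule genes, predicted genes, mitochondrial, ribosomal and immunoglobulin genes, and Xist, Tsix and Y-linked genes. Other X-linked genes, such as Luzp4, were not left out. Results for a few genes are not reported here.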

Additional observations from a re-analysis of the deposited data

How the results depend on the processing

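No paired analysis was possible because there is only 1 library in a group, and no replicate could be left out. The IR+saline minus non-IR share was 2.38 points with at least 1000 genes and 3.96 with at least 2 rule genes. The IR+pilocarpine minus IR+saline share was -4.89 with at least 2 rule genes, -3.35 without Cntn5, Rcan2 and Pde1c in the rule, -3.10 thinned and -2.52 with no limit on the 7 other genes, and the IR+pilocarpine minus non-IR share was -0.463 without those 3 genes and 0.479 with no limit.

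For genes past 1.5-fold, IR+saline over non-IR gave 1399 higher and 933 lower with at least 20 UMIs, 5426 and 3401 with no minimum, and 1139 and 931 with equal weight for each nucleus, and 254 lower among genes at least as high as in other nuclei. IR+pilocarpine over IR+saline gave 1130 and 1368 with at least 20 UMIs and 3777 and 5177 with no minimum, and for higher genes 1252 with no limit, 1069 with equal weight and 341 among genes at least as high as in other nuclei. IR+pilocarpine over non-IR gave 1119 and 900 with at least 20 UMIs, 4294 and 3822 with no minimum, 828 and 808 with equal weight, 224 and 267 without nuclei above the 95th percentile of UMIs, and for higher genes 269 with none of the 7 other genes, 231 in cluster 11, 1361 with no limit and 304 among genes at least as high as in other nuclei. Genes above other nuclei numbered 220 without the deepest nuclei, 257 with equal weight and 66 against nuclei outside acinar-like clusters. Transport medians were -0.15 (IR+pilocarpine over IR+saline) and -0.10 (over non-IR) in cluster 11, 0.15 for IR+saline over non-IR with no limit, and -0.07 for IR+pilocarpine over non-IR with equal weight. The cause of these shifts was not tested. No limit on the 7 genes, equal weight and a comparison with nuclei of fewer than 3 rule genes were chosen after seeing the data.

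Log2 ratios changed sign for Dock2 (IR+pilocarpine over non-IR) at -0.40 with at least 4 rule genes and -0.46 without the 3 rule genes, Scnn1g (IR+pilocarpine over IR+saline) at 0.12 with none of the 7 genes and 0.07 in cluster 11, and Foxi2 (IR+pilocarpine over non-IR) at 0.20 with none of the 7 genes, 0.11 in cluster 11 and 0.02 with equal weight. When thinned, Kcnq1 and Slc9a3 (IR+pilocarpine over IR+saline) were at 0.01 and -0.34, and Arhgap15 and Atp6v1c2 (IR+pilocarpine over non-IR) at -0.13 and 0.01. Slc4a4 (IR+saline over non-IR) was at -0.02 without the deepest nuclei and Tcirg1 (IR+pilocarpine over non-IR) at -0.04 with no limit. Among values for single genes, 2475 stayed within the tolerance, 495 moved and these 13 changed sign.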

Other observations

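Ionocyte nuclei were also set against other pathways. Of 8 measured Notch genes, 1 was past 1.5-fold higher and 1 lower in IR+saline than in non-IR ionocyte nuclei, where 8.02% of all measured genes were past the mark higher and 5.87% lower. Rbpj, the DNA-binding factor of the Notch pathway, stood at 84.8 CPM in IR+pilocarpine, 165 CPM in IR+saline and 85.6 CPM in non-IR ionocyte nuclei, against 92.8, 90.4 and 80.5 CPM in other nuclei. In cluster 11 Rbpj stood at 72.6, 85.6 and 83.5 CPM, without the IR+saline excess. Hes1, a Notch target, stood at 57.9, 77.6 and 63.1 CPM in ionocyte nuclei. Of 17 measured genes of the unfolded protein response, 2 were past 1.5-fold higher and none lower in IR+saline than in non-IR ionocyte nuclei, with a median log2 ratio of 0.17. Of 29 measured nuclear genes of oxidative phosphorylation, 3 were higher and 2 lower, with a median of 0.11. The Notch, unfolded protein response and oxidative phosphorylation counts lie near these shares of all genes and are not results about the lists.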
